A study of Mus musculus with 119 samples.

Results

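The genes described here are the Toll-like receptors (TLRs) of the mouse bone marrow–derived macrophage (BMDM) and the pair of proteins that help TLR4 to bind LPS. They were taken by symbol, as Tlr1, Tlr2, Tlr3, Tlr4, Tlr6, Tlr7, Tlr8, Tlr9, Cd14, and Ly96, which are 10 of the 18098 genes in the deposited expression table. All 10 passed the filter on low values in both statistical fits. RNA-seq libraries were compared from macrophages without LPS and after 0.5, 1, and 2 h with 100 ng/ml LPS. The design asked how mutation of the TPL-2 signaling pathway, or its inhibition, changed the response to LPS.

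All cells came from C57BL/6(NIMR) mice, and their marrow was grown into macrophages in medium conditioned by L cells. WT cells gave 22 libraries (6 each without LPS and at 0.5 and 1 h, and 4 at 2 h). Map3k8[D270A] cells gave 24 (6 per time) and carry a kinase-inactive form of TPL-2, the kinase that links LPS to MKK1/2 and ERK1/2. Elk1-/-Elk4-/- cells gave 16 (4 per time) and lack a pair of ternary complex factors, transcription factors that ERK1/2 phosphorylates. Nfkb1[SS/AA] cells gave 18 (6 each at 0, 0.5, and 1 h) and carry a form of p105, the protein that holds TPL-2 inactive, whose signal-induced proteolysis is blocked. The remaining libraries were of WT cells with an inhibitor. PD0325901 (0.1 µM), an inhibitor of MKK1/2, gave 21, of which 9 had no LPS (3 each at 10, 40, and 70 min) and 12 had LPS (6 each at 0.5 and 1 h). Its solvent DMSO gave 3 at 10 min. RSKi47 (2 µM), an inhibitor of the RSK kinases downstream of ERK1/2, gave 15 (3 at 0.5 h and 4 each at 0, 1, and 2 h). Inhibitors were added 10 min before LPS, and the untreated WT libraries were the control for both. The study's methods call its libraries biological replicates, but the labels do not say that they came from separate mice, so p-values measure only the spread between these libraries.

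TLRs are receptors of the innate immune system that recognize molecules of microbes. TLR4 sits at the cell surface and senses LPS together with MD-2, the product of Ly96, after CD14 has passed LPS to it. TLR2 also sits at the surface and senses bacterial lipoproteins as a heterodimer with TLR1 or TLR6. TLR3, TLR7, TLR8, and TLR9 sit in endosomes, where TLR3 senses double-stranded RNA, TLR7 single-stranded RNA, and TLR9 unmethylated CpG DNA. Most TLRs signal through MyD88 to NF-κB and the MAP kinases, TLR3 signals through TRIF, and TLR4 uses both. Macrophages are known for expressing most of these receptors and for adjusting their levels after LPS.

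Levels are given as deposited, on a log2 scale normalized across libraries, and a difference is one between 2 mean levels on that scale. No source used here names the transformation behind these values. A difference of 1 is read as 2-fold, but the transformation may have drawn differences together, and if they were natural logarithms a 2-fold change would stand at 0.693. A gene was called changed at an adjusted p below 0.05 from limma, with Benjamini-Hochberg adjustment over all genes tested (11884 in the fit of WT, Map3k8[D270A], and Elk1-/-Elk4-/- cells and 11971 in the fit of all libraries). RNA was bulk, so fewer cells that express a gene and less RNA per cell cannot be told apart.

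The depth of each library is unknown, because the values hold no counts and the study's methods give only a typical yield. The summed level of 7 macrophage markers, from which the member Cd14 was left out, was 18.3 to 19.1 over all libraries. T-cell and dendritic-cell sums lay between 4.04 and 6.75, with Cd3e and Siglech never at a linear value of 10. Elk1 was at 6.17 to 6.59 in Elk1-/-Elk4-/- libraries and 9.04 to 9.49 in WT libraries, and Elk4 at 5.51 to 5.88 and 7.57 to 8.49. The point mutations of Map3k8 and Nfkb1 cannot be checked by the level of their transcripts. Some libraries stood apart within their groups: WT replicates 4 to 6 from 7 to 9, Map3k8[D270A] replicates 1 to 3 from 4 to 6, RSKi47 replicate 4 from 1 to 3, and Nfkb1[SS/AA] replicate 2 at 1 h. The labels do not say why, and many of the differences below are also given within these groups or without these libraries.

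Positions are those of the RefSeq gene models on GRCm38.p6. Tlr1 (chr5:64924680-64933600) and Tlr6 (chr5:64953092-64970942) are neighbors 19491 bases apart, and Tlr8 (chrX:167241123-167264329) and Tlr7 (chrX:167303380-167330574) are 39050 bases apart. Tlr2 lies at chr3:83836272-83841824, Tlr3 at chr8:45395665-45411075, Tlr4 at chr4:66827551-66846581, Tlr9 at chr9:106222598-106226876, and Ly96 at chr1:16688456-16709605. Tlr1 and Tlr6 share 454 windows of 50 bases between their transcripts (15.3% of the windows of Tlr1 and 12.5% of those of Tlr6). No other pair of the 45 shares any. Single-end reads from that stretch could be assigned to either gene, so the values of Tlr1 and Tlr6 are less certain than the others.

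Promoter windows (250 bases before to 50 after a start site, RefSeq on GRCm38.p6) were used for 6 members, with 8 start sites. Any window of Cd14 was left out. Those of 5 members whose levels moved in different ways are printed 5′ to 3′ on the gene's strand, with matches to motifs in capitals. Tlr1 and Tlr6 have 2 windows each, of which 1 is printed. Both strands were searched for NF-κB (by its usual consensus), AP-1 (TGANTCA), CRE (TGACGT), the interferon-stimulated response element ISRE (by its usual consensus), PU.1 (GAGGAA), and ETS (CCGGAA). Of all 32851 promoter windows of this length, 8.46% hold an NF-κB match, 7.81% AP-1, 7.51% CRE, 3.44% ISRE, 28.3% PU.1, and 14.9% ETS.
Tlr2, chr3:83841559-83841858, minus strand, capitals NF-κB: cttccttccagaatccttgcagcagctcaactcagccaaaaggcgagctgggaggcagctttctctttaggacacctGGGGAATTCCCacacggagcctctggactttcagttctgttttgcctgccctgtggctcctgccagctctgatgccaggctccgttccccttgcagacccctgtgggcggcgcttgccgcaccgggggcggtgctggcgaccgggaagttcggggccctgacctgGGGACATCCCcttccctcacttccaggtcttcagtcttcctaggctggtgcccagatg
Tlr3, chr8:45410331-45410630, minus strand, capitals NF-κB: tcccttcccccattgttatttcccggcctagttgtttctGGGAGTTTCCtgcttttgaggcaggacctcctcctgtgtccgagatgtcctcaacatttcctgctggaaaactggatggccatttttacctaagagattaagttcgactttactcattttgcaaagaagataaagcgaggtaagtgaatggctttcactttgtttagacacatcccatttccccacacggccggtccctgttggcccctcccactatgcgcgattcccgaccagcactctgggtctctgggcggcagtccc
Tlr6, chr5:64959117-64959416, minus strand, capitals ISRE on the reverse strand: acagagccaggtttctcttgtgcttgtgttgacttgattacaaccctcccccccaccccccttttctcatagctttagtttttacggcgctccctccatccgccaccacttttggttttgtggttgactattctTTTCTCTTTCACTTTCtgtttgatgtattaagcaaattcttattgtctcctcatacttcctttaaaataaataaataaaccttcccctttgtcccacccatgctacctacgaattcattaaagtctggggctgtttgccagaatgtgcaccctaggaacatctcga
Tlr1, chr5:64933509-64933808, minus strand, capitals PU.1: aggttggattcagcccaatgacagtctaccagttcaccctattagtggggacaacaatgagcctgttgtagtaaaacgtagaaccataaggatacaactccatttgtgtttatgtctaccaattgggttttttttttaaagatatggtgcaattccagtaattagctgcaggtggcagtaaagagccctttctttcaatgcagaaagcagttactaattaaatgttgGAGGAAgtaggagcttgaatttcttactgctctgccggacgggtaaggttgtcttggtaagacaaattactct
Tlr9, chr9:106222348-106222647, plus strand, capitals PU.1, AP-1, and PU.1 on the reverse strand: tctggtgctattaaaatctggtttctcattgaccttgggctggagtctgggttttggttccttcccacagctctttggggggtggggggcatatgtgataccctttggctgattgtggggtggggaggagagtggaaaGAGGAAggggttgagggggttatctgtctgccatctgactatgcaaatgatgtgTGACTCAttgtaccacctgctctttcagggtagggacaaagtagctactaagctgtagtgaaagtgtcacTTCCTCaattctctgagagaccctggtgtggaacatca

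Tlr2 had NF-κB matches at 2 places, at -173 to -163 (overlapping matches) and at -8 to 2 from the start site. Tlr3 had one at -211 to -202. Tlr6 had overlapping ISRE matches from -116 to -101 in the window printed, and none of these motifs in its other window (chr5:64959999-64960298). The other window of Tlr1 (chr5:64932650-64932949) held an ETS match and no PU.1 match. Tlr9 had an AP-1 match at -58 to -52. A match of letters is a description and not a shown binding site.

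In WT macrophages, LPS raised Tlr2, Cd14, Tlr1, and Tlr6 by at least 2-fold within 2 h and lowered Tlr4, the LPS receptor itself. Ly96, Tlr3, and Tlr7 rose by smaller amounts and Tlr8 fell slightly. At 0.5 h, 2 of the 10 members were called, both higher (11.6% of all genes, 7.82% higher and 3.81% lower). At 1 h, 8 were called, 5 higher and 3 lower (46.8% of all genes, 23.8% higher and 23% lower). At 2 h, 9 were called, 7 higher and 2 lower (71.5% of all genes, 34.7% higher and 36.8% lower), a time at which most of the table had moved. Between 0 and 2 h the WT sums of 5 T-cell markers (4.19 to 4.58 against 5.86 to 6.75), 6 dendritic-cell markers (4.66 to 4.77 against 5.96 to 6.20), and 5 stromal markers (4.55 to 4.93 against 5.82 to 6.25) were higher without overlap. The genes apart were Lck and Cd247, then Zbtb46, Xcr1, and Ccr9, and then Pdgfrb, while Cd3d, Cd3e, Cd3g, Siglech, Flt3, Cd209a, Col1a1, Col1a2, Col3a1, and Dcn overlapped, and the part of these markers in the result was not tested. By size the members differed more from the table: 4 of 10 were called at 2-fold or more at 2 h, against 11% of all genes, and the median of their differences was 0.75 against -0.02 over all genes tested. The members were chosen with earlier results of these data known, so this is a description and not a test.

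**Figure D1:**
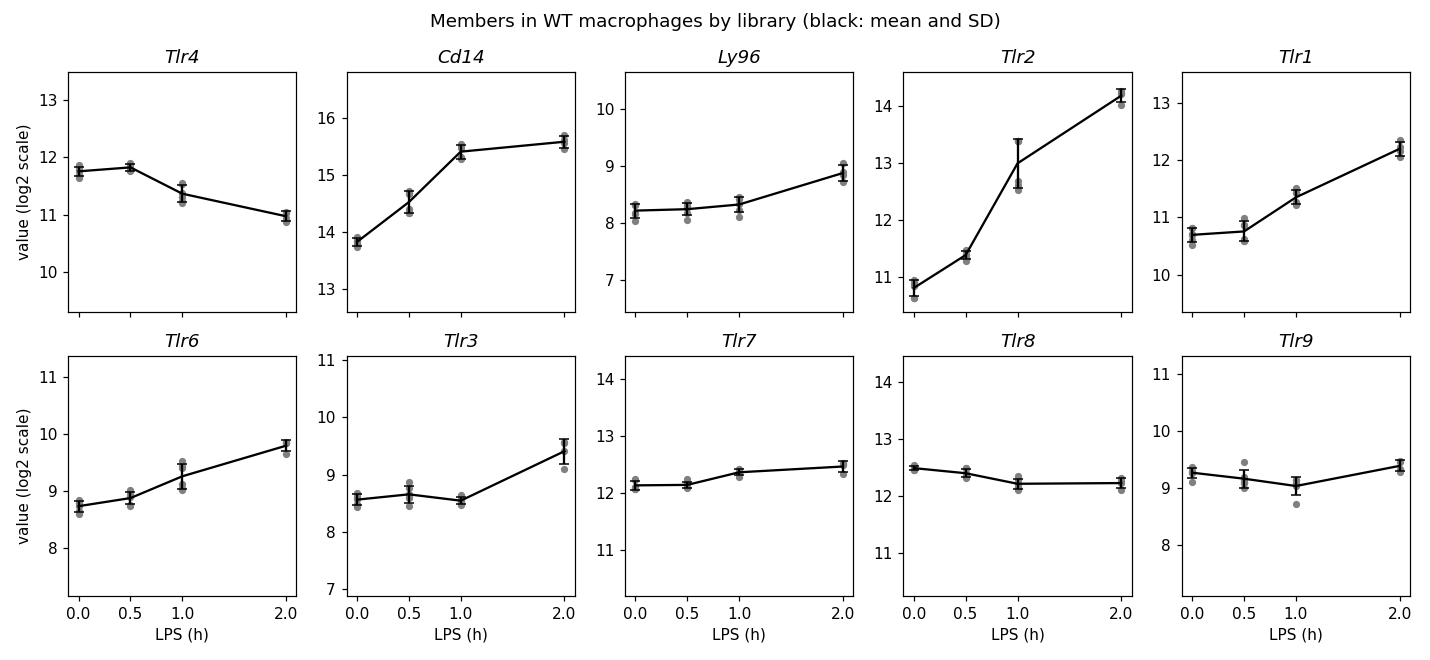
Level (log2 scale) of each member in WT libraries against time with LPS (h), with grey points for libraries and black lines with bars for the mean and SD of 6 libraries (4 at 2 h). All panels span the same range of the log2 scale; Tlr2 climbs from 10.64 to 10.95 without LPS to 14.01 to 14.26 at 2 h, and Tlr4 falls from 11.65 to 11.86 to 10.87 to 11.05.

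Of the LPS receptor complex, Cd14 (chr18:36725064-36726815) moved first. Without LPS its level was 13.74 at the lowest, 13.82 at the median, and 13.92 at the highest of 6 WT libraries. At 0.5 h Cd14 stood at 14.33, 14.54, and 14.72, and at 1 h at 15.29, 15.40, and 15.55. At 2 h the 4 libraries were at 15.56, 15.61, 15.71, and 15.46. Each LPS group lay wholly above the unstimulated one, and most of the rise had taken place by 1 h. The differences of Cd14 from 0 h were 0.70 ± 0.07 (SE; adjusted p = 4.4e-11), 1.58 ± 0.07 (2.83e-26), and 1.75 ± 0.08 (1.65e-26). At 0.5 h WT replicates 4 to 6 gave a Cd14 difference of 0.579 and replicates 7 to 9 of 0.814.

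Tlr4 fell while its co-receptor rose. Its lowest, median, and highest level were 11.65, 11.77, and 11.86 without LPS, 11.76, 11.81, and 11.91 at 0.5 h, and 11.19, 11.34, and 11.55 at 1 h. At 2 h Tlr4 was at 10.94, 10.87, 11.05, and 11.03. The groups at 0 and 0.5 h overlapped, and those at 1 and 2 h were below all unstimulated libraries. The difference of Tlr4 was 0.07 at 0.5 h (adjusted p = 0.55), -0.39 ± 0.06 at 1 h (1.56e-07), and -0.79 ± 0.07 at 2 h (1.54e-15), the last a 1.72-fold lower level. Ly96, which encodes the MD-2 subunit, was at 8.03 to 8.34 without LPS, 8.05 to 8.36 at 0.5 h, and 8.11 to 8.45 at 1 h, and these groups overlapped. At 2 h Ly96 was at 8.89, 8.72, 9.05, and 8.85, above all earlier WT libraries, with a difference of 0.66 ± 0.07 (adjusted p = 1.59e-12). The complex thus held one gene that rose early, one that rose late, and one that fell.

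Tlr2 had the largest change of the 10 in WT cells at 1 and 2 h. Its level without LPS was 10.64, 10.86, and 10.95 (lowest, median, highest) and at 0.5 h 11.28, 11.39, and 11.47. At 1 h the libraries split by replicate: replicates 4 to 6 were at 13.38 each and replicates 7 to 9 at 12.60, 12.68, and 12.52. At 2 h Tlr2 stood at 14.23, 14.20, 14.26, and 14.01. No group overlapped the one before it. The difference of Tlr2 was 0.58 ± 0.10 at 0.5 h (adjusted p = 4.19e-05), 2.18 ± 0.10 at 1 h (2.24e-25), and 3.37 ± 0.12 at 2 h (4.56e-32), a 10.3-fold higher level. Within replicates 4 to 6 the 1 h difference was 2.47 and within 7 to 9 it was 1.9.

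The partners of TLR2 rose later and less. Tlr1 was at 10.52, 10.71, and 10.82 (lowest, median, highest) without LPS, at 10.59, 10.75, and 10.99 at 0.5 h, and at 11.22, 11.35, and 11.51 at 1 h. At 2 h it was at 12.16, 12.06, 12.36, and 12.23. The difference of Tlr1 was 0.06 at 0.5 h (adjusted p = 0.707), 0.66 ± 0.07 at 1 h (2.11e-11), and 1.51 ± 0.08 at 2 h (1.11e-23), with no overlap at 1 or 2 h. Tlr6 was at 8.59, 8.77, and 8.85 without LPS and 8.74, 8.91, and 9.02 at 0.5 h. As for Tlr2, its 1 h libraries split, with replicates 4 to 6 at 9.40, 9.44, and 9.52 and replicates 7 to 9 at 9.13, 9.03, and 9.06. At 2 h Tlr6 was at 9.86, 9.84, 9.85, and 9.65. The difference of Tlr6 was 0.52 ± 0.06 at 1 h (adjusted p = 1.61e-11) and 1.06 ± 0.06 at 2 h (1.66e-21), and both groups lay above all unstimulated libraries.

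Of the endosomal receptors, Tlr3 had the largest difference in WT cells. It was at 8.43 to 8.67, 8.45 to 8.87, and 8.46 to 8.64 at 0, 0.5, and 1 h, which overlapped. It rose between 1 and 2 h, to 9.57, 9.41, 9.56, and 9.10, with a difference of 0.85 ± 0.13 from 0 h (adjusted p = 1.36e-07). Tlr7 was at 12.07 to 12.25 without LPS and 12.28 to 12.43 at 1 h (difference 0.23 ± 0.05, adjusted p = 0.000222). At 2 h Tlr7 was at 12.49, 12.33, 12.52, and 12.53 (difference 0.33 ± 0.06, adjusted p = 1.72e-06). Neither group of Tlr7 overlapped the unstimulated one, although the changes were among the smallest called.

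Tlr8, the X-linked neighbor of Tlr7, went the other way. It was at 12.46 to 12.55 without LPS and 12.12 to 12.36 at 1 h (difference -0.27 ± 0.06, adjusted p = 3.17e-05). At 2 h Tlr8 was at 12.23, 12.11, 12.27, and 12.32 (difference -0.26 ± 0.06, adjusted p = 0.000173), and with WT replicates 7 to 9 alone, of which only replicate 7 has a 2 h library, the difference was -0.185 (adjusted p = 0.0732). Tlr9 was called at 1 h alone. It was at 9.10, 9.29, and 9.37 without LPS, at 8.73, 9.09, and 9.14 at 1 h (difference -0.23 ± 0.07, adjusted p = 0.00775, groups overlapping), and at 9.28, 9.48, 9.34, and 9.46 at 2 h (0.12, adjusted p = 0.196).

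**Figure D2:**
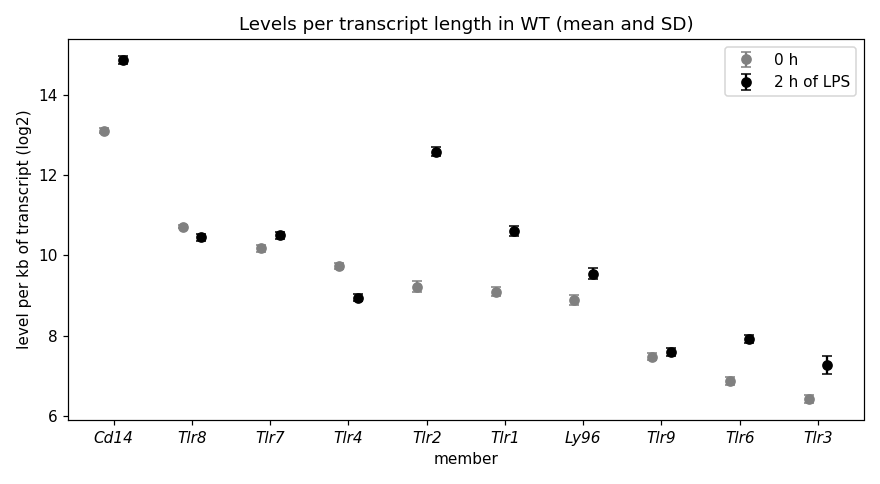
Level per kilobase of transcript (log2 scale) of each member in WT libraries without LPS (grey) and at 2 h of LPS (black), as mean and SD of 6 and 4 libraries. Cd14 stands first at both times (13.12 and 14.87), and Tlr2 moves from the fifth to the second place (9.22 to 12.58).

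To compare genes with each other, levels were divided by transcript length, from 632 bases for Ly96 to 4407 for Tlr3. Without LPS, the log2 level per kilobase was highest for Cd14 (13.12 ± 0.07, SD, n = 6), then Tlr8 (10.72 ± 0.03), Tlr7 (10.17 ± 0.08), and Tlr4 (9.73 ± 0.08). Tlr2 (9.22 ± 0.14), Tlr1 (9.10 ± 0.12), and Ly96 (8.88 ± 0.12) followed, and neighbors among these did not differ beyond their SDs. Tlr9 (7.47 ± 0.09), Tlr6 (6.86 ± 0.10), and Tlr3 (6.42 ± 0.09) were lowest and apart from each other. At 2 h of LPS the order per kilobase was Cd14 (14.87 ± 0.10, SD, n = 4) and Tlr2 (12.58 ± 0.11), then Tlr1 (10.61 ± 0.12), Tlr7 (10.50 ± 0.09), and Tlr8 (10.45 ± 0.09), whose neighbors did not differ beyond their SDs. Ly96 (9.54 ± 0.14), Tlr4 (8.94 ± 0.09), Tlr6 (7.92 ± 0.10), Tlr9 (7.59 ± 0.10), and Tlr3 (7.27 ± 0.22) came last. Transcripts of Tlr4 were thus above those of Tlr2 and Ly96 per kilobase before LPS and below both at 2 h.

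Map3k8[D270A] cells, compared with WT cells at the same time, showed whether TPL-2 kinase activity bears on these genes. Cd14 was lower in the mutant at 1 and 2 h and Tlr2 at 2 h, and most other members were not called. No member was called at 0 or 0.5 h (limma; 0 and 2 members at an unadjusted p below 0.05), where 1.44% and 1.37% of all genes were called. At 1 h, 1 member was called, lower (9.79% of all genes, 4.64% lower), and at 2 h, 4 were called, 3 lower and 1 higher (27.7% of all genes, 13.1% lower and 14.6% higher). Of the marker sums, that of dendritic-cell markers was lower in the mutant at 2 h (5.471 to 5.961 against 5.962 to 6.204), with Zbtb46 at 3.95 to 4.56 against 4.93 to 5.33 and Siglech and Flt3 overlapping. The macrophage marker Lyz2 was also lower at 2 h without overlap (17.90 to 18.04 against 18.11 to 18.21). The sum of the 7 macrophage markers overlapped (18.56 to 18.73 against 18.72 to 18.85). The part of these markers in the result was not tested.

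Without LPS, Cd14 levels overlapped: 13.76, 13.90, and 13.995 (lowest, median, highest) in the mutant against 13.74, 13.82, and 13.92 in WT cells. At 0.5 h they were 14.18, 14.35, and 14.49 against 14.33, 14.54, and 14.72 (difference -0.18, adjusted p = 0.266). The replicate groups differed here. Within WT replicates 4 to 6 and mutant replicates 1 to 3 the Cd14 difference was 0.208 without LPS (adjusted p = 0.0123) and 0.0878 at 0.5 h (0.379), and within WT replicates 7 to 9 and mutant replicates 4 to 6 it was -0.0989 (0.501) and -0.457 (1.19e-08). At 1 h the 6 mutant libraries had Cd14 at 14.81, 15.03, and 15.21 and the 6 WT libraries at 15.29, 15.40, and 15.55. All mutant libraries lay below all WT libraries, by a mean of -0.39 ± 0.07 (95% interval -0.53 to -0.24, adjusted p = 0.000108), a 1.31-fold lower level. At 2 h mutant Cd14 stood at 14.95, 15.11, and 15.35 against 15.46 to 15.71 (difference -0.45 ± 0.08, adjusted p = 1.92e-05, no overlap). Within the first pair of replicate groups the Cd14 difference was -0.332 at 1 h and -0.337 at 2 h, and within the second it was -0.447 at 1 h, all called. At 2 h the second pair gave -0.472, with 1 WT library (replicate 7) against 3, whose spread was assumed to be like that of the other groups.

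With all libraries, Tlr2 was not called in Map3k8[D270A] cells before 2 h (-0.22 at 0.5 h, adjusted p = 0.407). At 1 h the mutant was at 12.56, 12.83, and 13.15, within the wide range of the WT libraries, with a difference of -0.15 (adjusted p = 0.436). Within the first pair of replicate groups the Tlr2 difference was -0.0908 at 0.5 h (adjusted p = 0.421) and -0.322 at 1 h (3.49e-05), and within the second -0.346 (0.00174) and 0.0198 (0.933). At 2 h it was at 13.45, 13.64, and 13.77 (lowest, median, highest) and the WT libraries at 14.01 to 14.26, without overlap. The difference of Tlr2 at 2 h was -0.54 ± 0.12 (adjusted p = 0.000251), and -0.54 and -0.438 within the replicate groups, the latter with the single WT library. Tlr4 was called lower at 2 h by -0.19 ± 0.07 (adjusted p = 0.0295), with mutant levels of 10.60, 10.82, and 10.99 overlapping WT levels of 10.87 to 11.05. It was not called in the second pair of replicate groups (-0.214, adjusted p = 0.302), again with 1 WT library.

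Tlr9 was called higher in Map3k8[D270A] cells at 2 h (0.23 ± 0.08, adjusted p = 0.0313), and this rested on part of the libraries. Mutant replicates 1 to 3 had Tlr9 at 9.83, 9.78, and 9.77 and replicates 4 to 6 at 9.37, 9.39, and 9.61, against 9.28, 9.48, 9.34, and 9.46 in WT replicates 4 to 7. Within the first replicate groups the Tlr9 difference was 0.426 (adjusted p = 0.000117) and within the second, with 1 WT library, -0.00945 (0.982). Tlr3 showed the same split at 2 h, with mutant replicates 1 to 3 at 9.98, 10.18, and 10.17, replicates 4 to 6 at 8.94, 9.05, and 9.33, and WT libraries at 9.57, 9.41, 9.56, and 9.10. It was not called with all libraries, and within the first replicate groups Tlr3 (0.598), Tlr7 (0.22), and Tlr8 (0.255) were called higher.

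**Figure D3:**
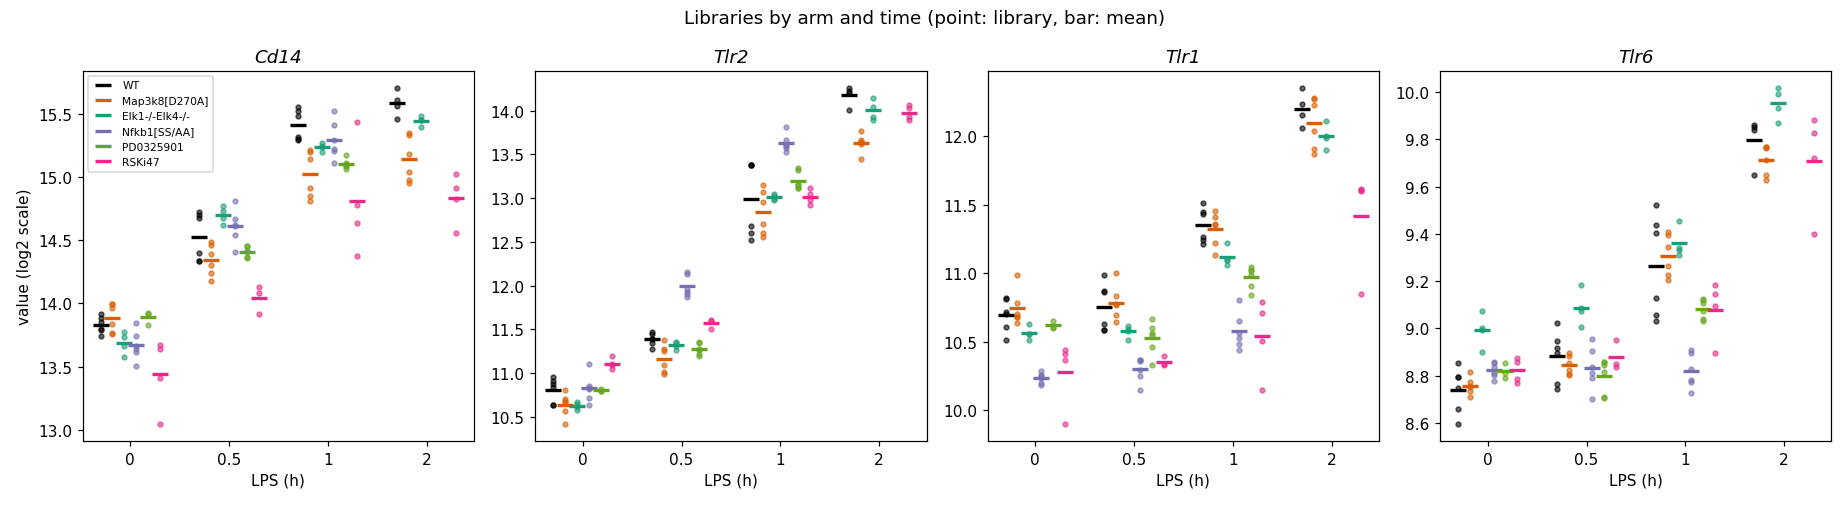
Level (log2 scale) of Cd14, Tlr2, Tlr1, and Tlr6 by time with LPS (h) and by genotype or inhibitor, with points for libraries and bars for means; the PD0325901 points at 0 h are those of 10 min without LPS. Map3k8[D270A] libraries lie below WT libraries for Cd14 at 1 and 2 h and for Tlr2 at 2 h, and Nfkb1[SS/AA] libraries lie above WT libraries for Tlr2 at 0.5 and 1 h and below them for Tlr1 at 0, 0.5, and 1 h.

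The Nfkb1[SS/AA] mutation acts one step upstream in the same pathway. In these cells Tlr2 was higher after LPS, Tlr1 and Tlr9 were lower at all 3 times, and Tlr6 was lower at 1 h. Of the members, 2 were called at 0 h, both lower (32% of all genes, 15.1% lower), 4 at 0.5 h (1 higher, 3 lower; 32.3% of all genes, 16.7% and 15.6%), and 6 at 1 h (1 higher, 5 lower; 42.5%, 20.5% and 21.9%). These comparisons and those of Map3k8[D270A] cells share their WT libraries. The summed level of neutrophil and precursor markers was 6.78 to 8.37 in Nfkb1[SS/AA] libraries and 6.31 to 7.77 in WT libraries, which overlapped. Of the macrophage markers, Adgre1 was lower at all 3 times without overlap (14.74 to 14.89 against 15.12 to 15.22 at 0 h). Lyz2 was higher without overlap at 0.5 and 1 h (18.28 to 18.70 against 17.97 to 18.18 at 1 h). Csf1r, Cd68, Fcgr1, Mertk, and Itgam overlapped at each time. The part of these markers in the result was not tested.

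Tlr2 was not called without LPS, at 10.63, 10.82, and 11.10 (lowest, median, highest) in Nfkb1[SS/AA] cells (difference 0.02, adjusted p = 0.914). At 0.5 h it was at 11.87, 11.94, and 12.16, above all WT libraries (11.28 to 11.47), by 0.61 ± 0.09 (adjusted p = 1.02e-08). At 1 h it was at 13.53, 13.60, and 13.81, also above all WT libraries (12.52 to 13.38), by 0.64 (adjusted p = 9.4e-10). The size at 1 h depended on the WT group, with a Tlr2 difference of 0.25 (adjusted p = 0.00829) against replicates 4 to 6 and 1.03 (7.6e-19) against replicates 7 to 9, while at 0.5 h these were 0.6 and 0.612. Cd14, which was lower in Map3k8[D270A] cells, overlapped with WT cells in Nfkb1[SS/AA] cells at all 3 times and was not called (13.51 to 13.84, 14.40 to 14.81, and 15.11 to 15.52).

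Tlr1 was lower in Nfkb1[SS/AA] cells at every time. Its levels were 10.19, 10.24, and 10.29 without LPS, 10.15, 10.33, and 10.37 at 0.5 h, and 10.44, 10.55, and 10.81 at 1 h, each group below all WT libraries. The differences of Tlr1 were -0.46 ± 0.08 (adjusted p = 4.14e-06), -0.46 (4.39e-06), and -0.77 (1.73e-13). Tlr6 overlapped with WT cells without LPS (8.78 to 8.86 against 8.59 to 8.85), and after LPS it stood at 8.70, 8.82, and 8.96 at 0.5 h and 8.73, 8.80, and 8.91 at 1 h. At 1 h all Tlr6 levels lay below the WT ones, by -0.44 ± 0.05 (adjusted p = 5.97e-11), and by -0.634 against WT replicates 4 to 6 and -0.253 against 7 to 9, both called. The Tlr1 differences against these WT groups ran from -0.82 to -0.4 over the 3 times, all called. Since Tlr1 and Tlr6 share sequence, their values may not be fully independent.

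Tlr9 was also lower in Nfkb1[SS/AA] cells, by -0.45 ± 0.12 without LPS (adjusted p = 0.00136), -0.52 at 0.5 h (0.000235), and -0.59 at 1 h (1.59e-05). Its levels were 8.55, 8.80, and 9.005 without LPS (WT 9.10 to 9.37), 8.55, 8.66, and 8.75 at 0.5 h, and 7.85, 8.50, and 8.74 at 1 h. The groups did not overlap at 0 and 0.5 h and overlapped at 1 h, and without replicate 2, the lowest library at 1 h, the Tlr9 difference was -0.468. Against the WT groups the Tlr9 differences ran from -0.658 to -0.408, all called. Tlr4 was lower by -0.19 at 0.5 h (adjusted p = 0.0158) and -0.19 at 1 h (0.00905), and against WT replicates 4 to 6 it was not called (-0.142 and -0.0735). Tlr8 was called at 1 h (-0.16, adjusted p = 0.0494) and not without replicate 2 (-0.0903, adjusted p = 0.294) or against WT replicates 4 to 6 (-0.105, 0.357).

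PD0325901 and DMSO were compared at 10 min without LPS, to see an early effect of the inhibitor by itself. No member and none of the 11971 genes was called (limma, 0% of all genes), no member had an unadjusted p below 0.05, and member differences ran from -0.06 to 0.03. With LPS the comparison was with untreated WT cells. At 0.5 h, 1 member was called (29.4% of all genes), Tlr1, by -0.23 ± 0.08 (adjusted p = 0.028, groups overlapping; -0.169, 0.203, against WT replicates 4 to 6), and at 1 h, 4 were called, 3 lower and 1 higher (35.7% of all genes, 19.3% lower and 16.4% higher). The summed level of neutrophil and precursor markers was higher in these libraries, at 8.11 to 8.35 and 8.28 to 8.82 at 0.5 and 1 h against 6.31 to 7.26 and 6.46 to 7.77 in WT libraries, without overlap. It was also higher without LPS, at 7.57 to 8.27 with DMSO and 7.33 to 8.10 with PD0325901 at 10 min. Unstimulated WT libraries were at 6.43 to 7.23. Of 9 markers Camp, Elane, Mpo, Retnlg, and Ly6g were never at a linear value of 10, and the part of these markers in the result was not tested.

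At 1 h with PD0325901, Tlr1 was at 10.84, 11.003, and 11.05 (lowest, median, highest) against 11.22 to 11.51 in WT cells, and Cd14 at 15.07, 15.10, and 15.17 against 15.29 to 15.55. Neither pair of groups overlapped. The difference of Tlr1 was -0.38 ± 0.08 (adjusted p = 0.00012) and that of Cd14 was -0.31 ± 0.09 (0.00309). Against WT replicates 4 to 6 these were -0.429 and -0.413, and against 7 to 9 they were -0.333 and -0.199, of which the last was not called (adjusted p = 0.149). Tlr6 (-0.18, adjusted p = 0.00629) and Tlr2 (0.21, adjusted p = 0.048) overlapped with WT cells, and their direction depended on which WT replicates served as control. Against WT replicates 7 to 9 the Tlr6 difference was 0.00936, and against replicates 4 to 6 the Tlr2 difference was -0.181. DMSO libraries and 10 min PD0325901 libraries had no member called against unstimulated WT cells (limma, no member at an unadjusted p below 0.05 in either), while 23.6% and 25.9% of all genes were called.

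Ly96 moved among the PD0325901 libraries without LPS. It was at 8.01, 8.19, and 8.25 at 10 min, at 7.75, 7.73, and 7.68 at 40 min, and at 7.93, 7.93, and 8.04 at 70 min, and the change between these times was not tested. From the 40 min level, LPS for 0.5 h raised Ly96 by 0.43 ± 0.07 (adjusted p = 9.15e-07), to 8.01, 8.16, and 8.28, a level that overlapped with WT cells.

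RSKi47 was compared with untreated WT cells at each time. Tlr1, Cd14, and Ly96 were lower at all 4 times and Tlr9 and Tlr7 higher at all 4, LPS or not. Without LPS 7 members were called (53% of all genes). After 0.5, 1, and 2 h, 6, 7, and 5 were called (48.2%, 52.8%, and 52.1% of all genes). The inhibitor libraries had no solvent control of their own among the samples used, so RSKi47 and any other difference between these cultures and the WT ones cannot be told apart. A summed stromal cell marker level of 5.41 to 9.44 in RSKi47 libraries, against 4.52 to 6.25 in WT libraries (Col3a1 and Dcn never at a linear value of 10), moved with this arm, as did a neutrophil and precursor sum of 7.12 to 8.60 against 6.31 to 7.77. Without LPS, Adgre1 was lower (14.53 to 14.98 against 15.12 to 15.22) and Csf1r higher (15.19 to 15.36 against 14.81 to 15.10), without overlap. The macrophage markers Cd68, Lyz2, Fcgr1, Mertk, and Itgam overlapped without LPS. The part of these markers in the result was not tested.

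Tlr1 with RSKi47 was at 10.44, 10.41, 10.37, and 9.90 without LPS (replicates 1 to 4 in order), at 10.34, 10.40, and 10.33 at 0.5 h, at 10.51, 10.79, 10.71, and 10.15 at 1 h, and at 11.60, 11.61, 11.61, and 10.85 at 2 h. All lay below all WT libraries of the same time. The differences of Tlr1 were -0.42, -0.40, -0.81, and -0.78 (adjusted p = 7.6e-05, 0.000563, 1.67e-12, and 1.47e-10). Without replicate 4, which was the lowest at 0, 1, and 2 h, they were -0.29, -0.402, -0.682, and -0.594, all called.

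Cd14 with RSKi47 was at 13.67, 13.41, 13.64, and 13.04 without LPS and at 14.08, 13.91, and 14.13 at 0.5 h. At 1 h it was at 15.44, 14.63, 14.78, and 14.38, where replicate 1 lay within the WT range, and at 2 h at 14.91, 14.83, 15.03, and 14.55. The differences of Cd14 were -0.39, -0.49, -0.61, and -0.75 (adjusted p = 0.00037, 6.69e-05, 8.34e-08, and 1.95e-09), and -0.257, -0.487, -0.462, and -0.663 without replicate 4. Ly96 was lower by -0.20, -0.26, -0.17, and -0.31 (adjusted p = 0.00565, 0.00147, 0.0203, and 9.71e-05), and by -0.227, -0.257, -0.193, and -0.266 without replicate 4. Tlr4 itself was not called (-0.10, -0.12, -0.06, and -0.00).

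Tlr9 with RSKi47 was at 9.77, 9.85, 9.97, and 9.04 without LPS, so that replicate 4 alone fell below the WT libraries. It was at 9.82, 9.75, and 9.87 at 0.5 h, 9.41, 9.59, 9.81, and 8.70 at 1 h, and 10.14, 10.05, 10.35, and 9.20 at 2 h. The differences of Tlr9 were 0.38, 0.65, 0.34, and 0.54 (adjusted p = 0.00934, 9.18e-05, 0.0232, and 0.000797), and 0.59, 0.645, 0.564, and 0.787 without replicate 4. For Tlr7 replicate 4 was again the lowest (12.40, 12.49, 12.48, and 11.95 without LPS), with differences of 0.19, 0.45, 0.24, and 0.34, which without replicate 4 were 0.319, 0.453, 0.35, and 0.479. Against 1 WT group or the other, Tlr9 was not called at 0, 1, or 2 h (0.34, 0.269, and 0.471) and Tlr7 at 0 or 2 h (0.186 and 0.276). Tlr3 was higher by 0.46, 0.51, and 0.52 at 0, 0.5, and 1 h and not called at 2 h (0.22, adjusted p = 0.206), where replicate 4 was at 8.90 and the others at 9.75, 10.04, and 9.83. Without replicate 4 the differences of Tlr3 were 0.546, 0.513, 0.577, and 0.463, all called (adjusted p = 0.00501 at 2 h).

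Tlr2 with RSKi47 was called higher without LPS (11.05, 11.09, 11.10, and 11.19 against 10.64 to 10.95, difference 0.30, adjusted p = 0.00595). At 0.5 h its 3 libraries, at 11.50, 11.60, and 11.60, also lay above all WT libraries (11.28 to 11.47), with a difference of 0.18 that was not called. At 1 and 2 h its differences were 0.02 and -0.20, neither called. Tlr6 was called at 1 h (-0.18, adjusted p = 0.00861), and against WT replicates 7 to 9 alone its difference was 0.0068.

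Elk1-/-Elk4-/- cells had higher Tlr3 and Tlr4 than WT cells at every time, with LPS and without. Without LPS 6 members were called (51.8% of all genes). After 0.5, 1, and 2 h, 4, 5, and 3 were called (44.4%, 53.4%, and 50.8% of all genes), and all but Tlr1 at 1 h (-0.23, adjusted p = 0.0128) were higher. Higher calls over all genes stood at 27.2%, 22.4%, 27.2%, and 27.7%. Neutrophil and precursor markers moved with this genotype: their summed level was 10.05 to 11.05 in Elk1-/-Elk4-/- libraries and 6.31 to 7.77 in WT libraries, and of 9 markers Elane, Mpo, and Ly6g were never at a linear value of 10. S100a9 was at 8.69 to 9.12 without LPS against 4.57 to 5.84, and Ngp at 7.88 to 8.48 against 3.75 to 4.70. Of the macrophage markers Lyz2 was lower without LPS (17.47 to 17.63 against 17.94 to 18.23), and Adgre1 (15.33 to 15.38 against 15.12 to 15.22) and Fcgr1 (12.70 to 12.94 against 12.16 to 12.41) were higher, without overlap. The part of these markers in the result was not tested.

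Tlr4 in Elk1-/-Elk4-/- cells was at 12.31, 12.34, 12.30, and 12.31 without LPS and at 12.12, 12.15, 12.36, and 12.26 at 0.5 h. It was at 11.91, 11.96, 12.17, and 12.04 at 1 h and at 11.43, 11.63, 11.57, and 11.29 at 2 h. Each of these levels lay above all WT libraries of its time, and Tlr4 fell with LPS as it did in WT cells. The differences of Tlr4 from WT cells were 0.56 ± 0.07 (adjusted p = 1.19e-09), 0.40 (3.66e-06), 0.65 (1.58e-11), and 0.51 (8.37e-08). Against the WT groups they ran from 0.352 to 0.774, all called.

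Tlr3 was at 9.32, 9.21, 9.26, and 9.24 without LPS in Elk1-/-Elk4-/- cells, 8.92, 9.10, 9.35, and 9.30 at 0.5 h, and 9.19, 9.09, 9.44, and 9.28 at 1 h. At 2 h it was at 10.45, 10.64, 10.51, and 10.49, the highest mean of Tlr3 among all 25 groups. No group overlapped with WT cells. Against the WT groups the Tlr3 differences ran from 0.503 to 1.43, all called, the highest with 1 WT library. With all libraries they were 0.70 ± 0.13 (adjusted p = 1.99e-05), 0.52 (0.0014), 0.71 (1.47e-05), and 1.11 ± 0.15 (9.79e-09), the last the only difference of 2-fold or more of a member between an arm and WT cells at the same time (2.09% of all genes were called at this size in that comparison).

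Tlr7 was higher in Elk1-/-Elk4-/- cells at 0, 0.5, and 1 h (0.33, 0.22, and 0.24; adjusted p = 5.18e-06, 0.0019, and 0.000485) and not called at 2 h (0.14, 0.07). Its levels without LPS were 12.48, 12.47, 12.53, and 12.39, above all WT libraries. Tlr8 was higher at 0, 1, and 2 h (0.16, 0.27, and 0.35; adjusted p = 0.0285, 0.000298, and 1.97e-05) and Tlr6 at 0 and 0.5 h (0.25 and 0.21; adjusted p = 0.000791 and 0.00721). Ly96 was called at 0 h (0.18, adjusted p = 0.0272) and against WT replicates 4 to 6 alone it was not (0.0766, 0.326). Xist did not reach a linear value of 10 in any library of the arms, so that the X-linked Tlr7 and Tlr8 were compared among libraries alike in this.

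**Figure D4:**
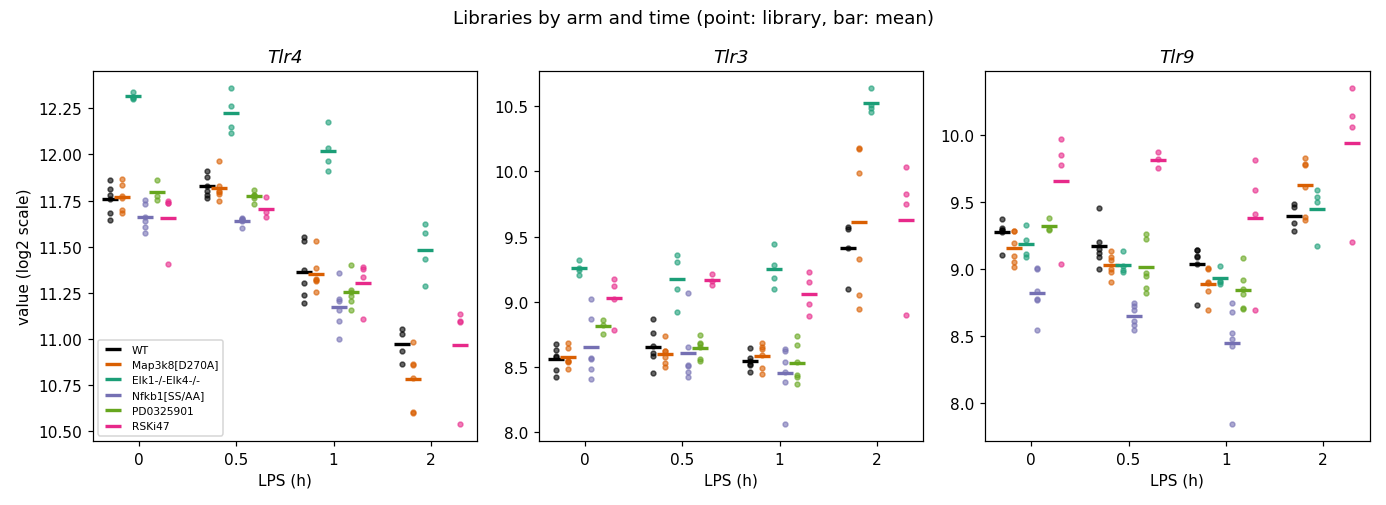
Level (log2 scale) of Tlr4, Tlr3, and Tlr9 by time with LPS (h) and by genotype or inhibitor, with points for libraries and bars for means; the PD0325901 points at 0 h are those of 10 min without LPS. Elk1-/-Elk4-/- libraries lie above WT libraries for Tlr4 and Tlr3 at every time, and RSKi47 replicate 4 is the low point of Tlr9 in its arm at 0, 1, and 2 h.

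The change with LPS was also tested within each arm. At 0.5 h, 2 members were called in Map3k8[D270A] (5.08% of all genes), 2 in Elk1-/-Elk4-/- (4.96%), 2 in Nfkb1[SS/AA] (14.6%), 3 with PD0325901 (14.9%), and 2 with RSKi47 (5.1%). Cd14 and Tlr2 were the genes in every arm, and Ly96 the third with PD0325901. At 1 h the arms in this order had 8 (41.9%), 6 (33.3%), 7 (44.4%), 8 (43.6%), and 6 (29%) members called. At 2 h, 10 were called in Map3k8[D270A] (69.5%), 8 in Elk1-/-Elk4-/- (67.2%), and 8 with RSKi47 (62.2%). Tlr4 fell by 2 h in each, by -0.99, -0.83, and -0.69, while Tlr3 rose by 1.04, 1.27, and 0.60. Within Map3k8[D270A] replicates 1 to 3 the rise of Tlr3 at 2 h was 1.55 and within replicates 4 to 6 it was 0.53, both called. Tlr8 at 2 h was at 0.101 (adjusted p = 0.189) in the first and -0.37 (1.71e-06) in the second. Without RSKi47 replicate 4 the rise of Tlr3 with RSKi47 was 0.765.

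A difference from WT cells at one time does not show that the response to LPS differs, so the change with LPS in each arm was also compared with that in WT cells by an interaction term. Of 130 such tests over the members, 10 were called, 6 smaller and 4 larger than in WT cells. The share of all genes called ran from 0.0251% (RSKi47 at 0.5 h) to 21% (RSKi47 at 2 h) over the 13 comparisons, and was 0.109% for Map3k8[D270A] cells at 0.5 h and 3.58% for PD0325901 at 1 h, which had no member called (limma; 1 and 2 members at an unadjusted p below 0.05, and 1 for RSKi47 at 0.5 h). For PD0325901 at 1 h the interaction of Cd14 was -0.34 (adjusted p = 0.177) and that of Tlr9 -0.39 (0.312). With a replicate block within the arm both were called (-0.344, adjusted p = 0.0151, and -0.376, 0.0266), and against WT replicates 4 to 6 that of Cd14 was (-0.505, 0.0478). Cd14 rose less in Map3k8[D270A] cells, by 1.14 and 1.25 at 1 and 2 h, with interactions of -0.44 (adjusted p = 0.00669; 2.02% of all genes were called) and -0.50 (0.000594; 15.5%). Within the replicate groups these were -0.54 and -0.348 at 1 h and -0.545 and -0.373 at 2 h, of which the last rests on a single WT library at 2 h. For Tlr9 in the same cells the interaction at 2 h was 0.35 (adjusted p = 0.0239), and -0.0331 within the second replicate groups, with the same limit. The interaction of Tlr2 at 2 h, when its level was lower in these cells, was not called with all libraries. It was called with a replicate block within the arm and within the first replicate groups.

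In Nfkb1[SS/AA] cells Tlr2 rose more, by 1.17 and 2.81 at 0.5 and 1 h, with interactions of 0.59 (adjusted p = 0.00337; 0.309% of all genes called) and 0.62 (8.61e-05; 6.07%). Against WT replicates 4 to 6 the 1 h interaction of Tlr2 was 0.338 and against 7 to 9 it was 0.91. Tlr6 changed by 0.01 and -0.00 in these cells, where it rose in WT cells, with an interaction of -0.53 at 1 h (adjusted p = 1.35e-07), and of -0.644 and -0.409 against the WT replicate groups. The lower Tlr1 and Tlr9 of these cells gave no interaction that was called.

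With PD0325901 the interaction of Ly96 at 0.5 h was 0.41 (adjusted p = 0.00346; 1.49% of all genes called), in which the low 40 min level served as the start. With RSKi47, Tlr2 rose less by 2 h (-0.50, adjusted p = 0.0061; 21% of all genes called), as did Tlr1 (-0.37, adjusted p = 0.0426), and Tlr6 by 1 h (-0.27, adjusted p = 0.0497; 5.54%). Without RSKi47 replicate 4, Tlr1 (-0.304, adjusted p = 0.0532) and Tlr6 (-0.26, 0.0819) were not called and Tlr2 was (-0.452, 0.0322). In Elk1-/-Elk4-/- cells no member was called by limma at any time (1, 0, and 3 members at an unadjusted p below 0.05 at 0.5, 1, and 2 h), where 0.0589%, 1.35%, and 16.9% of all genes were. The rise of Tlr3 at 2 h in these cells had an interaction of 0.42 (adjusted p = 0.148). Against WT replicates 4 to 6 alone it was 0.348 (0.0184) and against WT replicates 7 to 9, with 1 library at 2 h, 0.695 (0.0108), both called.

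**Figure D5:**
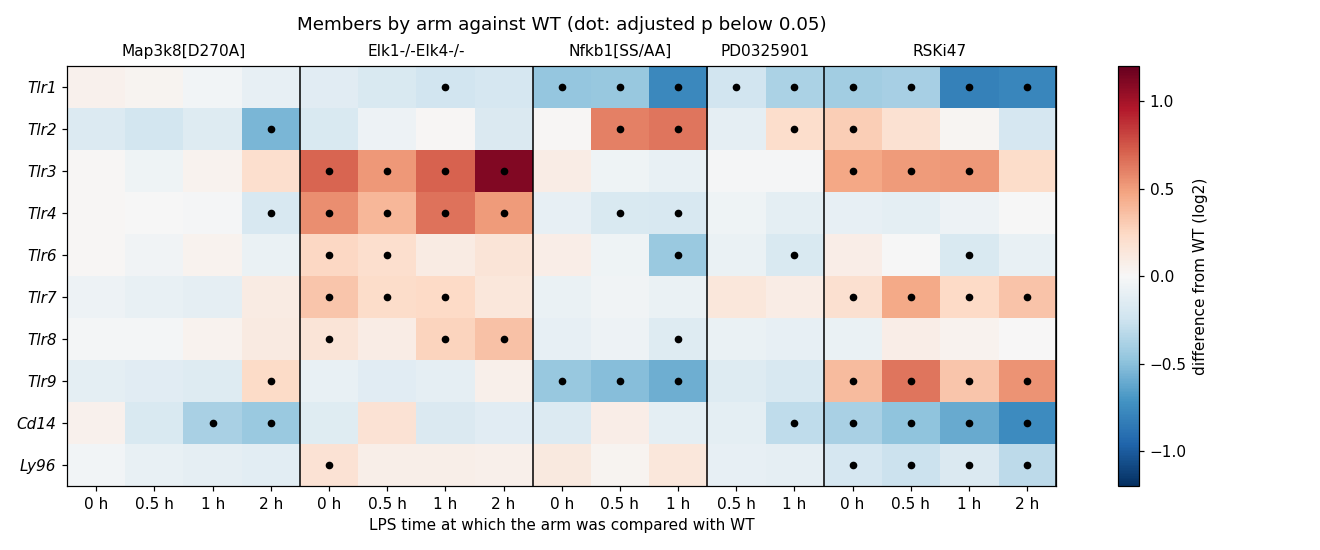
Difference in level from WT cells at the same time with LPS (log2 scale, red higher, blue lower) of each member in each arm, with dots where the adjusted p was below 0.05. Tlr1 is blue with dots in Nfkb1[SS/AA], PD0325901, and RSKi47 cells, and Tlr3 and Tlr4 are red with dots throughout Elk1-/-Elk4-/- cells.

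At 1 h Tlr1 was called lower in 4 arms, and the values stand side by side because the comparisons share the WT libraries. Its difference was -0.77 in Nfkb1[SS/AA], -0.38 with PD0325901, -0.81 with RSKi47, and -0.23 in Elk1-/-Elk4-/- cells. In Map3k8[D270A] cells Tlr1 was at 11.13 to 11.46 at 1 h, overlapping with WT cells, and was not called. For Cd14 at 1 h the differences called were -0.39 in Map3k8[D270A], -0.31 with PD0325901, and -0.61 with RSKi47 cells. Tlr2 was called at 1 h with a higher level in Nfkb1[SS/AA] (0.64) and PD0325901 (0.21) cells, and against WT replicates 4 to 6 alone these were 0.25 and -0.181.

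Over the 25 group means, the widest span was that of Tlr2 (3.55), from 10.63 in unstimulated Elk1-/-Elk4-/- cells to 14.18 in WT cells at 2 h. Cd14 (2.14), Tlr3 (2.07), and Tlr1 (1.97) followed, and Tlr8 (0.59) and Tlr7 (0.75) had the narrowest spans. Among the members, Tlr1 and Tlr6 had the highest Pearson correlation of group means (0.914), then Tlr2 and Cd14 (0.909) and Tlr6 and Ly96 (0.848). These describe 25 points that share LPS times and libraries. The genes most like Tlr2 in this measure were Sod2, the mitochondrial superoxide dismutase (0.990), Sqstm1 (0.987), and Rela, an NF-κB subunit (0.987). Most like Cd14 were Gm6377 (0.965), Marcksl1 (0.963), and Ddx5 (0.962), and most like Tlr6 were Cdc27 (0.979), Hif1a (0.976), and Abi1 (0.971). Tlr1 was most like Sh3bgrl2 (0.969), Ralb (0.962), and Hcls1 (0.960), Tlr3 most like Cept1 (0.967), Dnajc13 (0.964), and Fndc3a (0.961), and Tlr4 most like Zfp946 (0.952), Gm13157 (0.952), and Gmcl1 (0.946). Ly96 was most like 1810022K09Rik (0.957), Rab5a (0.943), and Cr1l (0.932). Tlr9 had no gene as close, with Tcof1 (0.887), Prpf8 (0.859), and Edc4 (0.843).

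The rest of the pathway was read from 6 lists of 48 genes, of which Tlr11, Tlr12, and Sarm1 did not pass the filter on low values. Their counts in WT cells stand beside 23.8% of all genes higher and 23% lower at 1 h and 34.7% and 36.8% at 2 h. In WT cells the adaptors, which carry the signal from the receptor's TIR domain, changed as follows: 2 of 4 tested were higher and 1 lower at 1 h, and all 4 were higher at 2 h. Ticam1, which encodes TRIF, was higher by 0.97 at 1 h, and Myd88 by 0.56 at 1 h and 1.12 at 2 h. Tirap, which bridges TLR2 and TLR4 to MyD88, was first lower (-0.41 at 1 h) and then higher (0.89 at 2 h). Of 16 proximal kinases and ligases, 10 were higher and 3 lower at 1 h and 11 and 4 at 2 h, led by Peli1 (3.15 at 2 h), Irak2 (1.57), and Ikbke (1.52).

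Of 8 negative regulators, 4 were higher at 1 h and 5 at 2 h, when 3 were lower. Tnip1, an inhibitor of NF-κB signaling, was higher by 1.57 at 1 h and 2.56 at 2 h, Irak3 by 0.74 at 2 h, and Il1rl1 was lower by -0.61. Of 8 chaperones and trafficking proteins, which bring TLRs to their compartment, 2 were higher and 2 lower at 1 h and 3 and 3 at 2 h, with Lrrc59 at 0.83, Cnpy4 at -0.33, and Cnpy3 at -0.28 at 2 h. Of accessory proteins, 1 of 7 was higher at 1 h, and 1 was higher (Cd180, 0.51) and 1 lower (Hmgb1, -0.16) at 2 h. Both of the other TLR genes tested fell by 2 h, Tlr13 by -0.76 ± 0.06 (adjusted p = 4.14e-16) and Tlr5 by -0.57 (8.31e-05), as Tlr4 did. Tlr13 went from 13.17 to 12.42. Tlr5 went from 4.56 to 3.99, near the filter value of 10 on the linear scale (3.32 on the log2 scale).

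In Map3k8[D270A] cells at 2 h, 3 of 16 kinases and ligases were higher and 2 lower, 1 of 8 negative regulators higher and 2 lower, and 1 of 4 adaptors higher and 1 lower, where 14.6% of all genes were higher and 13.1% lower. Tnip1 was lower by -0.69 (adjusted p = 4.7e-09) and Tirap by -0.30 (3.18e-06). In Elk1-/-Elk4-/- cells Cd180, a TLR homolog that restrains TLR4, was higher at all 4 times (0.46, 0.35, 0.47, and 0.29), as was Tlr13 (0.26, 0.18, 0.23, and 0.26). Unc93b1, the chaperone of endosomal TLRs, was lower at all 4 (-0.38, -0.33, -0.39, and -0.31), so that the higher Tlr3 and Tlr7 levels of these cells stood beside a lower level of their chaperone.

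In Nfkb1[SS/AA] cells, Ticam1 was higher at 0, 0.5, and 1 h (0.18, 0.27, and 0.43), Hsp90b1, the chaperone gp96 of most TLRs, was lower (-0.20, -0.17, and -0.17), and Il1rl1 was lower (-0.93, -0.82, and -0.88). With PD0325901 at 1 h, 1 of 16 kinases and ligases was higher (Peli1, 0.52) and 4 lower, among them Ikbke (-0.40), where 16.4% and 19.3% of all genes were. With RSKi47, Ly86, the MD-1 partner of CD180, was lower at 0, 1, and 2 h (-0.59, -0.44, and -0.62), beside the lower level of Ly96, and Il1rl1 was lower at all 4 times (by -1.50, -1.25, and -1.48 at 0, 0.5, and 1 h). Ikbke with RSKi47 was lower by -0.56 at 1 h and -0.57 at 2 h.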

How the data were processed

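RNA-seq libraries in 25 groups were analysed. Per the submitters' processing notes, reads were processed with STAR 2.5.1b, RSEM 1.2.29, and DESeq2 1.10.1 on mm10. The values the authors deposited are log2-scale levels of 18098 genes, normalized across libraries by a transformation that no source used here names, and they run from -2.40 to 19.8. A single value above 25 (57.7, for Fosb) was treated as missing in RSKi47 replicate 1 at 1 h. Counts and depth cannot be read from this scale, so precision rests on the spread between libraries. No column of another sample was present. One marker list that was fixed is not reported here.

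Groups were compared with limma 3.58.1 (R 4.3.3), using moderated variances and no trend. Genes were kept that reached 10 on the linear scale in 4 or more of the 62 libraries of WT, Map3k8[D270A], and Elk1-/-Elk4-/- cells, or in 3 or more of all libraries. All 10 members were named in every comparison. From each pathway list, up to 3 called genes with the largest differences could be named, and for members whose group means spanned at least 1, the 3 genes with the highest Pearson correlation. The members and lists were chosen with earlier results of these data known. Scripts were tested on simulated data. Alternatives were another fit, no filter, a trend or robust variance, equal medians, replicate blocks, and leaving libraries out.

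Same-numbered libraries deviated together within WT cells (correlations 0.16 to 0.79 over 30 pairs of libraries) and within Nfkb1[SS/AA] cells (0.14 to 0.67 over 18), and there the numbers were taken to pair libraries. Libraries of different numbers were not correlated, so these values cannot show that the numbers pair them. Correlations of same-numbered libraries did not all pass 0.1 within the other arms, nor between WT cells and any arm (-0.45 to -0.057 between WT and Map3k8[D270A] cells).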

Additional observations from a re-analysis of the deposited data

Results flagged for a closer look

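Single libraries stood far from the rest of their group for 14 of 200 combinations of a member and a group (a gap to the nearest library too large for the range by Dixon's test at 95%). Chance gives about 1 in 20 groups such a library. RSKi47 replicate 4 accounted for 5 of these, with Tlr1 at 9.90 without LPS and 10.85 at 2 h, Tlr4 at 11.41 and 10.54 at the same times, and Tlr7 at 11.95 without LPS. In Nfkb1[SS/AA] cells they were Tlr3 at 9.07 in replicate 4 and Tlr4 at 11.60 in replicate 3, both at 0.5 h, and Tlr9 at 7.85 in replicate 2 at 1 h. In WT cells they were Tlr9 at 9.10 and 8.73 in replicate 9 without LPS and at 1 h, and Tlr6 at 9.65 in replicate 7 at 2 h. The others were Tlr4 at 11.96 in Map3k8[D270A] replicate 6 at 0.5 h, Tlr7 at 12.67 in PD0325901 replicate 1 at 1 h of LPS, and Tlr9 at 9.02 in Elk1-/-Elk4-/- replicate 1 at 1 h.

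The response to LPS differed from that of WT cells by an interaction term of limma in 10 cases. Cd14 rose less in Map3k8[D270A] cells at 1 h (-0.44) and 2 h (-0.50), and Tlr9 had a positive term at 2 h (0.35). Tlr2 rose more in Nfkb1[SS/AA] cells at 0.5 h (0.59) and 1 h (0.62), where Tlr6 had a negative term at 1 h (-0.53). Ly96 had a positive term with PD0325901 at 0.5 h (0.41). With RSKi47 the terms were negative for Tlr6 at 1 h (-0.27), Tlr1 at 2 h (-0.37), and Tlr2 at 2 h (-0.50).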

How the results depend on the processing

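Of 166 called differences of the members, 125 kept their direction and their side of the threshold under every alternative run. Over 2143 alternative values of these, 2002 did so, 135 were no longer past the threshold, and 6 turned direction. The number of members called, given for 49 comparisons, moved by over 1.5 times in 64 of 690 alternative values, which follow. The depth of each library is unknown, so what it limits could not be assessed. The comparisons with WT replicates 4 to 6 or 7 to 9 alone, and the LPS responses within groups of Map3k8[D270A] replicates, were chosen after the data were seen, and the cause of each change below was not tested.

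The values that turned direction did so when 1 group of replicates was used, with 1 WT library at 2 h for the first 2: Tlr9 in Map3k8[D270A] cells at 2 h (-0.00945) and its interaction (-0.0331), Tlr2 (-0.181) and Tlr6 (0.00936) with PD0325901 at 1 h, Tlr6 with RSKi47 at 1 h (0.0068), and the LPS response of Tlr8 at 2 h in Map3k8[D270A] replicates 1 to 3 (0.101).

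With a replicate block shared between WT and Map3k8[D270A] cells, whose numbers share only a name, 4, 5, and 5 members were called at 0, 0.5, and 1 h, and with PD0325901 at 0.5 h 6 were. A replicate block within the arm gave 4 calls for the interaction of Map3k8[D270A] cells at 2 h (Tlr2, Tlr4, Tlr9, and Cd14), 2 for PD0325901 at 1 h (Tlr9 and Cd14), 2 for RSKi47 at 1 h, and 1 for Elk1-/-Elk4-/- cells at 2 h (Tlr7), and 5 for the LPS response with PD0325901 at 0.5 h. Within WT and Nfkb1[SS/AA] cells, where the numbers were taken to pair the libraries, the block changed no call. No paired analysis was possible because Elk1-/-Elk4-/- and RSKi47 cells share only replicate number 4 with WT cells, for their comparisons with WT cells.

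With WT replicates 4 to 6 and Map3k8[D270A] replicates 1 to 3, 1, 2, and 7 members were called at 0, 1, and 2 h, and with WT 7 to 9 and Map3k8[D270A] 4 to 6, 2 at 0.5 h and 2 at 2 h. With WT 4 to 6, 8 and 7 were called in Elk1-/-Elk4-/- cells at 1 and 2 h. With WT 7 to 9, 4 were called in Nfkb1[SS/AA] cells at 0 h, 2 with PD0325901 at 0.5 h, and 3 with RSKi47 at 2 h. A fit over WT and PD0325901 libraries alone called 2 at 0.5 h. For the interactions in Map3k8[D270A] cells the mutant was held to replicates 1 to 3 beside WT 4 to 6 and to 4 to 6 beside WT 7 to 9. WT 4 to 6 gave 1, 1, and 1 calls for the interactions in Elk1-/-Elk4-/- cells at 0.5, 1, and 2 h (Cd14, Tlr6, and Tlr3), 1 with PD0325901 at 1 h (Cd14), 3 with RSKi47 at 1 h, and 6 in Map3k8[D270A] cells at 2 h. WT 7 to 9 gave 1 and 1 in Elk1-/-Elk4-/- cells at 1 and 2 h (Tlr2 and Tlr3), 1 with PD0325901 at 1 h (Tlr2), 0 and 0 with RSKi47 at 1 and 2 h, and 1 and 1 in Map3k8[D270A] cells at 0.5 and 2 h. Map3k8[D270A] replicates 4 to 6 gave 1 call for their LPS response at 0.5 h. Without a filter on low values RSKi47 gave 0 and 1 at 1 and 2 h.

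Each replicate number of an arm was left out in turn, with its libraries of all times. The number of members called then ran from 1 to 2 and 2 to 4 in Map3k8[D270A] cells at 1 and 2 h, 4 to 6, 4 to 6, 5 to 6, and 3 to 5 in Elk1-/-Elk4-/- cells, 4 to 7 in Nfkb1[SS/AA] cells at 1 h, 0 to 1 and 3 to 4 with PD0325901 at 0.5 and 1 h, and 5 to 7, 4 to 7, and 5 to 6 with RSKi47 at 0, 1, and 2 h. For the interactions it ran from 1 to 2 in Map3k8[D270A] cells at 2 h and 0 to 1 and 1 to 2 with RSKi47 at 1 and 2 h, and for the LPS response with RSKi47 at 0.5 h from 1 to 2. With a replicate number left out, 91 of 1290 values were no longer past the threshold. They belong to 28 called differences, among them Tlr4 (-0.23 to -0.15) and Tlr9 (0.19 to 0.28) in Map3k8[D270A] cells at 2 h Tlr2 (0.11 to 0.29) with PD0325901 at 1 h, Tlr8 (-0.19 to -0.09) in Nfkb1[SS/AA] cells at 1 h, and Tlr7 (0.14 to 0.32) with RSKi47 at 0 h.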
